A study of Mus musculus with 14 samples.

Results

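Oocyte-specific maternal transcripts are messages that the growing oocyte makes and stores, and that the embryo inherits with the cytoplasm. The set described here held 10 genes, chosen by name with earlier results of these data known: *Zp1*, *Zp2*, *Zp3*, *Gdf9*, *Bmp15*, *Zar1*, *Npm2*, *H1foo*, *Nlrp5* and *Mos*. Members were found as probes, other than control probes, whose gene name in the array files was one of these names, with *Nlrp5* also listed under its older name *Nalp5*. This gave 11 probes of 9 genes, out of 41174 gene probes and 19511 named genes on the array. *Zp2* and *Zp3* had 2 probes each, and *Zp1* had none under its name. Outside this rule, 1 probe described in the files only as a predicted *Zp1* transcript was well above background on 5 of 14 arrays and reached at most 4.91 on the log2 scale.

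RNA of mouse blastocysts at E4.0 was measured on 14 one-color Agilent arrays. In 8 of them the embryo was a clone with a cumulus cell as nuclear donor, and the nucleus had been brought in by fusing the cell with the oocyte in 4 (fusion clones) and by injecting it in the other 4 (injection clones). The remaining 6 arrays held embryos from in vitro fertilization (IVF), 3 male and 3 female. All embryos were cultured in KSOM medium, both clone groups are labeled female, and the series describes the IVF embryos as matched in sex and genotype. Below, male and female embryos or arrays are those of IVF, although the clones are also labeled female. The study's methods describe recipient oocytes from adult, superovulated BDF1 females, donor cells of every type, cumulus cells included, from BDF1 mice heterozygous for an *Xist* knockout, and BDF1 embryos as IVF controls. The labels of the blastocysts themselves give no genotype, and whether each array held a single blastocyst is not given in the sources used here. No source says that the samples of a group came from separate collections of oocytes, and the p-values below measure only the spread between these samples, which may be technical.

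Zona pellucida proteins, encoded by *Zp1* to *Zp3*, form the coat around the oocyte. *Gdf9* and *Bmp15* encode growth factors that the oocyte secretes to the cumulus cells around it, the cell type that served as nuclear donor here. *Zar1*, *Npm2*, *H1foo* and *Nlrp5* are maternal-effect or oocyte chromatin genes, and *Mos* encodes a kinase that holds the egg in meiotic arrest. In mouse most stored oocyte messages are degraded during maturation and the first cleavages. A clone starts from the same kind of oocyte cytoplasm as an IVF embryo but receives a somatic nucleus in place of the egg and sperm genomes, and the comparison asks whether oocyte messages are as low in clones as in IVF embryos.

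Upstream sequence is shown for 3 members that differ in how often they were measured: *Zp3* and *H1foo*, which were well above background on every array, and *Bmp15*, which was so on 4. Each run is the 250 bases before the RefSeq transcription start in the build GRCm38.p6, written 5′ to 3′ on the gene's strand, with each CANNTG, the E-box bound by basic helix-loop-helix factors such as the oocyte factor FIGLA, in capitals. The *Zp3* run lies at chr5:135979855-135980104 on the plus strand, the *H1foo* run (current symbol *H1f8*) at chr6:115944681-115944930 on the plus strand, and the *Bmp15* run at chrX:6320725-6320974 on the minus strand.
Zp3: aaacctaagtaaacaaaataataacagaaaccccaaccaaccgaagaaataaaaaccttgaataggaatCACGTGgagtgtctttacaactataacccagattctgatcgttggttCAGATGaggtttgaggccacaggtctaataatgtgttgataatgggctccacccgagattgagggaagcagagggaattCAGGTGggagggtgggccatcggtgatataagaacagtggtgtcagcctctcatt
H1foo: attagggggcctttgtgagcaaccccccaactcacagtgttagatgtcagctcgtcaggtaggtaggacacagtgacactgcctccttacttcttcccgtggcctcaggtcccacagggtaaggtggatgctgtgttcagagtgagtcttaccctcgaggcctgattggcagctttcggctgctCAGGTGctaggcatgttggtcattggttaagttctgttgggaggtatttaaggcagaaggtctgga
Bmp15: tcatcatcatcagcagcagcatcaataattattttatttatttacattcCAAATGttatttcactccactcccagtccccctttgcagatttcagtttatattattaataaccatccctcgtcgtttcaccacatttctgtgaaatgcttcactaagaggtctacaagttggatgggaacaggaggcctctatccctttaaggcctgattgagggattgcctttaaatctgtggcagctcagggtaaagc
The *Zp3* run held 3 E-boxes, 1 of them the form CACGTG, and the *H1foo* and *Bmp15* runs held 1 each. CANNTG reads as itself on the opposite strand, and 66.2% of the 32851 upstream windows of the same length in the RefSeq table held at least 1, against 6.02% for CACGTG. These matches describe the letters only.

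On each array 57.4% to 65.2% of gene spots were well above background, and 12 to 14 of 14 blastocyst markers were well above background on every array, although some of them differed in level between clones and IVF embryos, as given further on. Values are log2 of the processed intensity after quantile normalization, with a floor of 4, and a value at the floor has no order. Each group lay on a slide of its own, and the clones and the IVF embryos were also read with different scanners and software versions, so that group and slide cannot be told apart in any comparison. On single arrays, 4 to 6 of the 9 member genes were well above background in fusion clones, 4 to 7 in injection clones, 5 to 7 in male and 3 to 5 in female IVF embryos. An array reads the RNA of a whole sample, so that fewer cells with a transcript and less of it per cell cannot be told apart.

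**Figure D1:**
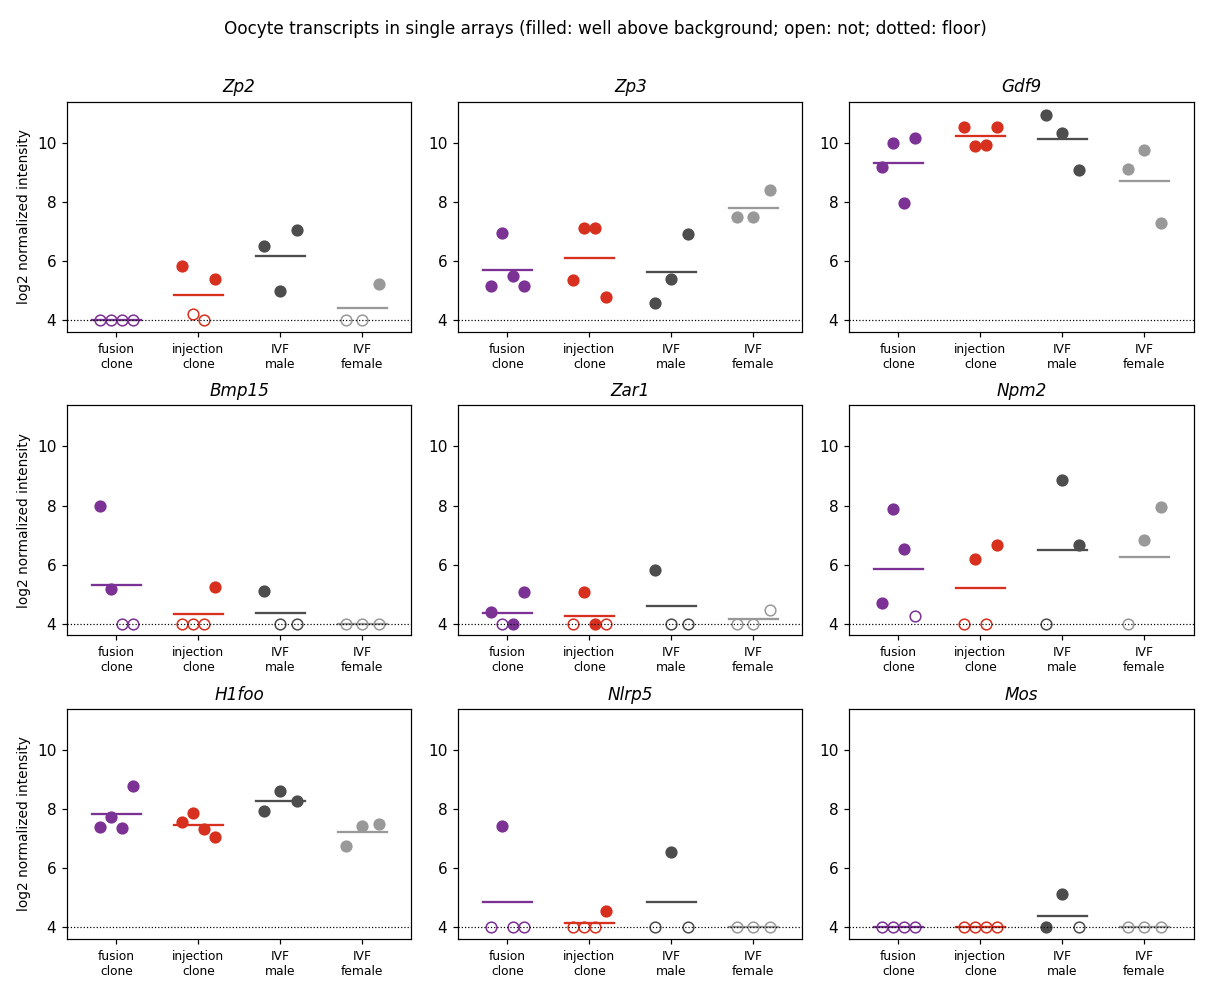
Log2 normalized intensity (vertical axis) of the brightest probe of each of the 9 member genes on the 14 arrays, by group; filled points were well above background, open points were not, short lines are group means and the dotted line is the floor of 4. Gdf9 and H1foo were measured on every array, the Zp3 points of the female IVF embryos lie above all others, and Bmp15, Zar1, Nlrp5 and Mos lie at the floor on most arrays.

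Among the zona genes, *Zp3* separated the female IVF embryos from the other 3 groups. Its brighter probe read 7.49, 7.51 and 8.39 in the female IVF embryos. It read 5.17, 6.94, 5.5 and 5.15 in the fusion clones and 5.36, 7.11, 7.12 and 4.78 in the injection clones. The male IVF embryos read 4.59, 5.38 and 6.92. Every clone and every male embryo was below every female embryo, whereas the clones and the male embryos overlapped one another. The mean log2 value was 7.79 ± 0.52 (SD, n = 3) in female embryos, 6.09 ± 1.20 (SD, n = 4) in injection clones, in fusion clones 5.69 ± 0.85 (SD, n = 4), and in male embryos 5.63 ± 1.18 (SD, n = 3), and the last 3 differed by less than their spread. The dimmer probe of *Zp3*, whose deviations from the group means followed those of the brighter one (r = 0.98 over 14 arrays, as a description), gave the same order of female embryos above all others, at 7.19, 7.22 and 8.12 against at most 6.96 elsewhere.

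The *Zp3* differences did not pass the adjusted threshold. Fusion clones were 2.11 lower than female embryos on the log2 scale (SE 0.51, 95% interval -3.32 to -0.89, limma adjusted p = 0.0507). Injection clones were 1.70 lower in mean (SE 0.68, interval -3.36 to -0.04, adjusted p = 0.208), and male embryos 2.17 lower (SE 0.66, interval -3.79 to -0.54, adjusted p = 0.553). These 3 comparisons share the same 3 female arrays. The fusion comparison lay at the threshold. Its limma adjusted p was 0.0387 under another background correction (a difference of -1.17), 0.0309 when dim probes were filtered more strictly and 0.0259 without fusion clone 2. Only these 3 of its 18 alternatives called it, and the adjusted p ranged from 0.0259 to 0.21 over all of them.

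*Zp2* was measured less often. Its brighter probe was at the floor in all 4 fusion clones and read 5.84, 4.20, 4 and 5.39 in the injection clones. It read 6.52, 4.97 and 7.06 in the male embryos, and 4, 4 and 5.22 in the female embryos. The dimmer probe was also at the floor in all 4 fusion clones, and read 5.07, 4, 4 and 4.23 in the injection clones, 6.04, 4.39 and 6.37 in the male and 6.07, 5.17 and 4.20 in the female embryos. Neither probe was well above background on any fusion clone array, whereas both were so on all 3 male arrays. For fusion clones against female embryos the mean of the dimmer probe was at least 2.16-fold lower (95% interval of the log2 difference -2.15 to -0.15, limma adjusted p = 0.14). That of the brighter probe was at least 1.29-fold lower, but its interval included 0 (-1.19 to 0.38, adjusted p = 0.466). These bounds hold for the fold between the measured means and leave out the spread between arrays. The probes disagreed in the direction of injection clones against female embryos, with a log2 difference of 0.45 for the brighter probe (SE 0.57, adjusted p = 0.642) and -0.82 for the dimmer (SE 0.50, adjusted p = 0.39).

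*Gdf9* was well above background on every array. Whether its signal came from stored oocyte RNA or from transcription by the embryo was not tested. It read 9.17, 10, 7.98 and 10.17 in the fusion clones and 10.54, 9.90, 9.94 and 10.53 in the injection clones. It read 10.94, 10.35 and 9.07 in the male embryos and 9.13, 9.75 and 7.28 in the female embryos. All injection clones were above all female embryos, and the other groups overlapped. Group means in falling order were 10.23 ± 0.36 (SD, n = 4) in injection clones, 10.12 ± 0.96 (SD, n = 3) in male embryos, in fusion clones 9.33 ± 1.0 (SD, n = 4), and in female embryos 8.72 ± 1.29 (SD, n = 3), and each neighboring pair differed by less than its spread. The difference of injection clones from female embryos was 1.51 on the log2 scale (SE 0.60, 95% interval 0.06 to 2.96, adjusted p = 0.203), and that of fusion clones was 0.61 (SE 0.76, interval -1.20 to 2.43, adjusted p = 0.614). Without female embryo 3, the array with the lowest value, these differences were 0.79 and -0.11.

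*Bmp15*, the partner growth factor of *Gdf9*, was well above background on only 4 arrays. It read 7.99 and 5.19 in fusion clones 1 and 2 and was at the floor in the other two. Injection clone 4 read 5.24, male embryo 1 read 5.09, and all other arrays, including every female IVF array, were at the floor. The value of fusion clone 1 stood alone, and without it the log2 difference of fusion clones from female embryos was 0.40 in place of 1.29 (SE 0.98, adjusted p = 0.443).

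*H1foo*, the linker histone of the oocyte, was the steadiest of the 3 members measured on every array. It read 7.39, 7.74, 7.36 and 8.79 in the fusion clones and 7.57, 7.87, 7.33 and 7.06 in the injection clones. The male embryos read 7.95, 8.61 and 8.27 and the female embryos 6.76, 7.43 and 7.5. Both clone groups overlapped both IVF groups, and the male embryos were all above the female ones. The log2 difference from female embryos was 0.59 in fusion clones (SE 0.41, 95% interval -0.39 to 1.57, adjusted p = 0.411) and 0.23 in injection clones (SE 0.28, interval -0.44 to 0.90, adjusted p = 0.626), and between the IVF sexes it was 1.05 (SE 0.32, interval 0.25 to 1.85, adjusted p = 0.558).

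*Npm2*, which encodes the oocyte nucleoplasmin that opens sperm chromatin, varied most. It read 4.70, 7.88, 6.54 and 4.27 in the fusion clones and 4, 6.19, 4 and 6.66 in the injection clones. It read 4, 8.85 and 6.65 in the male embryos and 4, 6.84 and 7.95 in the female embryos. Each group held both high and low arrays, and all groups overlapped. The pooled SD within groups was 1.86 on the log2 scale, larger than that of 98.5% of 34269 probes and of 95.2% of the 2868 probes of a like level. For *H1foo* the same SD was 0.47, larger than that of 15.6% of the 2174 probes of its level, and the median over all probes was 0.52. The intervals for *Npm2* were correspondingly wide, at -3.34 to 2.50 for fusion clones and -3.87 to 1.77 for injection clones against female embryos.

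*Zar1*, *Nlrp5* and *Mos* were near the floor. *Zar1*, a maternal-effect gene of the zygote, was highest in male embryo 1 at 5.81, in fusion clone 4 at 5.07 and in injection clone 2 at 5.07. It was well above background on 6 arrays, none of them of female IVF embryos. On those of fusion clone 3 and injection clone 3 its value was nevertheless at the floor. *Nlrp5*, a component of the subcortical maternal complex, read 7.44 in fusion clone 2, 6.55 in male embryo 2 and 4.55 in injection clone 4, and was at the floor on all other arrays. *Mos* was well above background on 2 male arrays, those of male embryos 1 and 2. It read 5.12 in male embryo 2 and was at the floor on every other array, that of male embryo 1 included. None of these 3 genes was well above background on a female IVF array. Their folds over female IVF embryos are therefore lower bounds, which set no upper limit. The largest bound was at least 1.81-fold, for *Nlrp5* in fusion clones (limma adjusted p = 0.566). Over the alternatives the log2 difference of *Nlrp5* in that comparison ranged from 0.49 to 3.73.

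**Figure D2:**
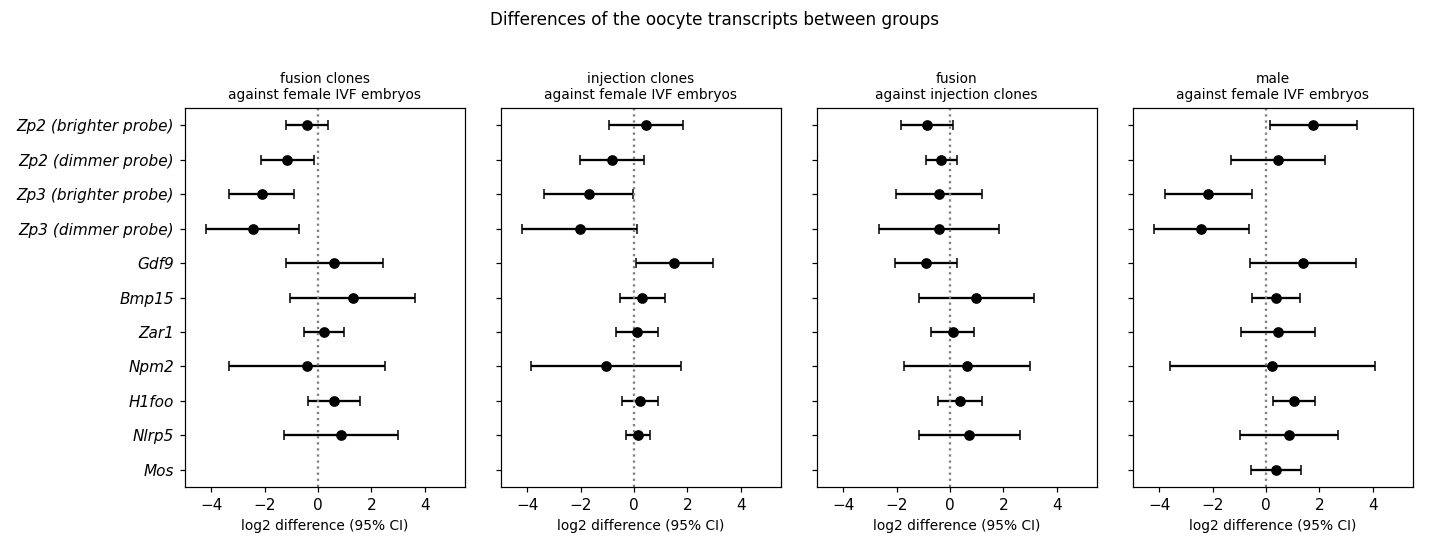
Log2 difference (horizontal axis, first group minus second) of the member probes in 4 comparisons, with 95% intervals from limma; a probe dim on all arrays of the groups compared has no point. The intervals of both Zp3 probes lie below 0 for fusion clones and for male embryos against female embryos. For injection clones only that of the brighter Zp3 probe does (-3.36 to -0.04). Most others include 0.

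Counted over the set, limma called 0 of the 10 member probes tested between fusion clones and female embryos at an adjusted p below 0.05, against 9.37% of all 32370 probes tested. At an unadjusted p below 0.05 the count was 3, both *Zp3* probes and the dimmer *Zp2* probe, all lower in the clones, against 27.1% of all probes. The same 3 probes were the ones whose groups did not overlap with the clones lower (15.4% of all probes), and 0 did so with the clones higher (10.5%). For injection clones against female embryos 0 of 10 member probes were called (3.61% of all probes), and 2 passed the unadjusted threshold (23.2%), *Zp3* lower and *Gdf9* higher. Groups did not overlap for both *Zp3* probes, with clones lower (12.5%), and for *Gdf9*, with clones higher (8.4%). The median log2 difference over the 8 genes tested was 0.41 in fusion and 0.18 in injection clones, with medians of -0.12 and -0.08 over all probes. *Bmp15*, *Zar1* and *Nlrp5* entered both medians without any female IVF array well above background. *Bmp15* and *Nlrp5*, at the floor on every female IVF array, could not be lower in clones, so that these medians give no direction for the set.

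Between fusion and injection clones 0 of 10 member probes were called by limma (0% of 32187 probes), 0 passed the unadjusted threshold (6.14%) and 0 had groups apart (3.32%). The median was 0.23 over 8 genes and -0.02 over all probes, and *Zp2*, at the floor in every fusion clone, could not be higher there. The intervals still allowed differences of several fold, and the widest was that of *Npm2* (-1.73 to 3.01). Between male and female IVF embryos 0 of 11 member probes were called (0.0593% of 32021 probes; with the replicate number as a block, 0 of all probes) and 4 passed the unadjusted threshold (7.77%), both *Zp3* probes lower in males and *H1foo* and the brighter *Zp2* probe higher. Groups were apart for both *Zp3* probes with males lower (6.82%) and for *H1foo* with males higher (6.03%). The median over 9 genes was 0.45, against -0.03 over all probes. It gives no direction for the set, because *Bmp15*, *Zar1*, *Nlrp5* and *Mos* entered it without a female IVF array well above background. Of these, *Bmp15*, *Nlrp5* and *Mos* were at the floor on every female IVF array and could not be lower in males.

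With both clone groups set against both IVF groups, 1 of 11 member probes was called and was lower in clones, against 13.1% of 34946 probes called lower and 22.3% called in either direction. The called probe was the dimmer one of *Zp2*, which fell by 1.21 on the log2 scale (SE 0.36, 95% interval -1.99 to -0.43, limma adjusted p = 0.0309), and the brighter probe differed by -0.87 (SE 0.39, adjusted p = 0.14). Clones and IVF embryos overlapped at both probes. The call was lost without any 1 of fusion clones 1, 2 and 3, injection clones 2 and 3, male embryos 1 and 3 and female embryos 1 and 2, with adjusted p values of at most 0.072. No member probe had all clones apart from all IVF embryos (6.27% of all probes). At an unadjusted p below 0.05 the count was 2 (34.3% of all probes). The median was -0.11 over 9 genes and -0.07 over all probes, and *Mos*, at the floor on every clone array, could not be higher in clones. Under a looser rule, an unadjusted p below 0.05 with a difference of at least 2-fold, the member probes called numbered 3, of 2 genes, in fusion clones (17.3% of all probes), 2 in injection clones (14.1%), 0 between the clone groups (2.43%), 4, of 3 genes, between the sexes (5.83%) and 1 between clones and IVF embryos (16.1%). The contrast of both clone groups with both IVF groups shares its arrays with the others.

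For 3 members, the genes of other names whose deviations from the group means were most alike over the 14 arrays were picked from 15755 probes that were well above background on every array. They were *Zfp524* (r = 0.94), *Zwint* (r = 0.92) and *Xpnpep3* (r = 0.91) for *Gdf9*. For *H1foo* they were *Nub1* (r = 0.91), *Prepl* (r = 0.91) and *Derl2* (r = 0.90), and for *Zp3* they were *Klhl42* (r = 0.93), *Dennd2c* (r = 0.89) and *Plscr3* (r = 0.87). None of these 9 genes was on the lists of oocyte genes, and values this high are the extremes of a large search.

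A wider list of 62 other oocyte genes had 51 genes on the array. Of these, 19 were well above background on all 14 arrays, among them *Khdc3*, *Ooep*, *Tle6* and *Padi6* of the subcortical maternal complex, *Dppa3*, and the RNA-binding genes *Cpeb1* and *Ybx2*, and 3 were not so on any. Some of these, such as *Dppa3*, are also transcribed by the embryo itself. Between fusion clones and female embryos 0 of 41 tested genes rose and 3 fell, which is 7.32% called against 9.37% of all probes, with a median log2 difference of -0.29 against -0.12 over all probes. Between injection clones and female embryos 1 of 43 rose and 0 fell (2.33% against 3.61% of all probes), with a median of -0.04 against -0.08. No gene of the list was called by limma between fusion and injection clones (46 tested, smallest adjusted p = 0.714) or between male and female embryos (42 tested, smallest adjusted p = 0.52).

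**Figure D3:**
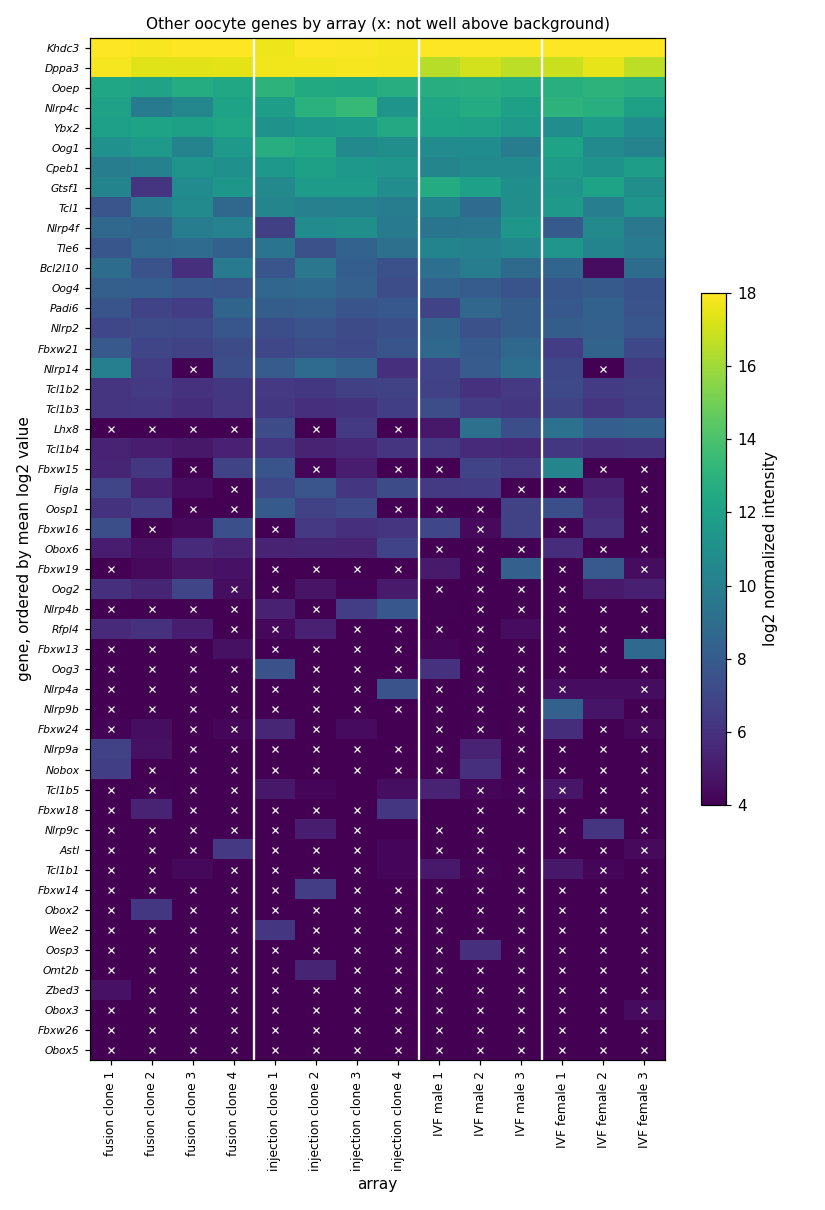
Log2 normalized intensity (color) of 51 other oocyte genes (rows, ordered by mean) on the 14 arrays (columns, by group); a cross marks a value not well above background. The upper 19 or so genes are measured nearly everywhere, the lower ones are near the floor of 4, and Lhx8 is marked on all 4 fusion clone arrays.

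The gene with the largest fall in fusion clones was *Lhx8*, which encodes a LIM homeobox factor of early oocyte growth. It read 9.29, 8.18 and 8.35 in the female embryos and 4.88, 9.15 and 7.36 in the male embryos. It was at the floor and not well above background in all 4 fusion clones, and read 7.27, 4, 6.39 and 4 in the injection clones. Fusion clones were at least 23.7-fold lower in mean than female embryos (limma adjusted p = 0.000927), a call that no single array removed. The fusion clone values, all at the floor, add no spread of their own to this test. The call was lost with the replicate number as a block (adjusted p = 0.0973). Injection clones were lower in mean by a log2 difference of -3.19 (SE 0.93, adjusted p = 0.111). Over both clone groups against both IVF groups *Lhx8* fell by 3.16 (SE 0.69, adjusted p = 0.00741).

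*Tle6*, a partner of *Nlrp5* in the subcortical maternal complex, was lower in every clone than in every IVF embryo. It read 7.74, 8.80, 8.87 and 8.35 in the fusion clones and 9.37, 7.48, 8.39 and 9.17 in the injection clones. It read 10.33, 10.17 and 10.55 in the male embryos and 11.29, 10.31 and 9.83 in the female embryos. Against both IVF groups it fell by 1.89 on the log2 scale (SE 0.33, adjusted p = 0.00262), and the call remained without any single array (adjusted p of at most 0.00662). Fusion clones fell by 2.04 against female embryos (SE 0.43, adjusted p = 0.038), a call that was lost without any 1 of 6 of the 7 arrays, all except female embryo 3, and injection clones differed by -1.88 (SE 0.57, adjusted p = 0.12). *Ooep* and *Khdc3* of the same complex differed by -0.30 (adjusted p = 0.116) and -0.20 (adjusted p = 0.136) between all clones and all IVF embryos.

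*Figla*, the factor that binds E-boxes of the zona genes in oocytes, rose in injection clones. It read 6.97, 7.71, 6.22 and 7.22 there and 4, 5.16 and 4 in the female embryos, and 6.95, 5.21, 4.49 and 4 in the fusion clones. The male embryos read 6.35, 6.43 and 4. The difference of injection clones from female embryos was 2.64 (SE 0.45, adjusted p = 0.0412), with female embryos well above background on 1 array, and the call was lost without any 1 of 6 of the 7 arrays, all except female embryo 2. The remaining call in fusion clones was *Tcl1b4*, which fell by 0.93 (SE 0.20, adjusted p = 0.0377) and whose call was lost without any 1 of the 7 arrays. Over both clone groups against both IVF groups 2 of 48 genes rose and 3 fell, which is 10.4% called against 22.3% of all probes. Besides *Lhx8* and *Tle6*, and named after their values were seen, these were *Dppa3*, which rose by 0.75 (SE 0.15, adjusted p = 0.00527), *Obox6*, which rose by 1.16 (SE 0.34, adjusted p = 0.0288; lost without any 1 of 7 arrays, namely fusion clones 3 and 4, all 3 male embryos and female embryos 2 and 3), and *Nlrp2*, which fell by 0.72 (SE 0.18, adjusted p = 0.0158).

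Some markers of the blastocyst lineages were also called in the same contrast. Of 14, 1 rose and 4 fell between all clones and all IVF embryos (35.7%, against 22.3% of all probes), and they are named here after their values were seen. The 22.3% also counts dim probes, whereas 12 of the 14 markers were well above background on all 14 arrays. Among probes well above background on every array of a group, 8441 of 24350 were called. The share of 35.7% is therefore not a result about these markers as a list. *Nanog*, of the epiblast, rose by 1.02 on the log2 scale (SE 0.28, adjusted p = 0.024). *Elf5*, a trophoblast factor, fell by 3.17 (SE 0.46, adjusted p = 0.001), with every clone below every IVF embryo, and in fusion clones against female embryos alone it fell by 2.96 (SE 0.44, adjusted p = 0.0154). *Gata4*, of the primitive endoderm, fell by 2.72 (SE 0.69, adjusted p = 0.0158), *Cdx2* of the trophoblast by 0.60 (adjusted p = 0.0117) and its keratin *Krt18* by 0.56 (adjusted p = 0.00736). *Sox17*, of the primitive endoderm, spanned 4 to 15.0 over the clones and 13.2 to 14.28 over the IVF embryos. The part of these marker levels in the differences of *Lhx8*, *Tle6* and the other oocyte and decay genes was not tested.

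**Figure D4:**
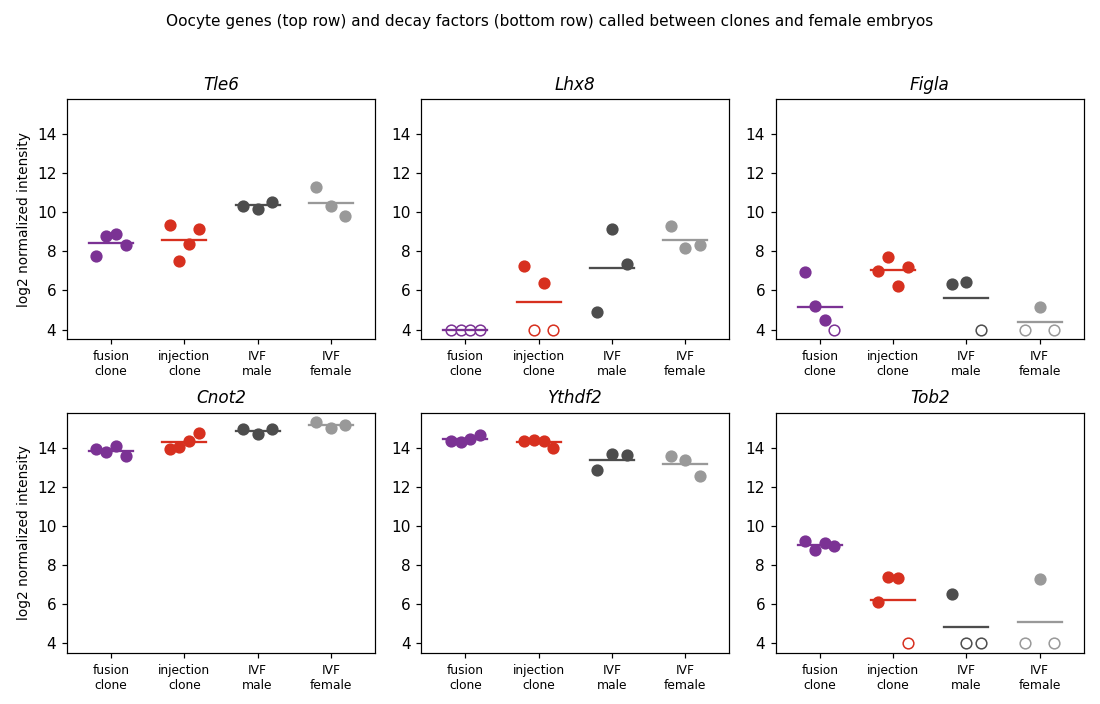
Log2 normalized intensity (vertical axis) of 3 oocyte genes (upper row) and 3 genes of RNA decay (lower row) called in fusion or injection clones against female IVF embryos, by group; points, lines and fills as for the member genes. Tle6 lies lower in all clones than in all IVF embryos, Lhx8 is at the floor in all 4 fusion clones, and Ythdf2 is higher in all clones.

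Genes that act in the removal of maternal RNA were a separate list of 21, of which 19 were on the array. Between fusion clones and female embryos 3 rose and 1 fell (21.1% called, against 9.37% of all probes). The 9.37% also counts dim probes, whereas 15 of the 19 genes were well above background on all 14 arrays. Among probes well above background on every array of a group, 4339 of 22880 were called in this comparison. The share of 21.1% is therefore not a result about the list. Between injection clones and female embryos 0 of 19 were called by limma (smallest adjusted p = 0.0687, with 3.61% of all probes called). Over both clone groups against both IVF groups 3 rose and 1 fell, and this 21.1% lay near the 22.3% of all probes. *Ythdf2*, a reader of methylated RNA that brings it to deadenylation, read 14.01 to 14.65 over the 8 clones and 12.53 to 13.69 over the 6 IVF embryos. It rose by 1.08 over both groups (SE 0.19, adjusted p = 0.00252), and the call remained without any single array. *Cnot2*, a structural subunit of the CCR4-NOT deadenylase, read 13.58 to 14.10 in fusion clones and 15.01 to 15.31 in female embryos and fell by 1.32 (SE 0.19, adjusted p = 0.0144), a call kept without any single array. *Tob2*, which recruits that deadenylase, read 8.79 to 9.25 in fusion clones and 4, 7.27 and 4 in female embryos and rose by 3.94 (SE 0.81, adjusted p = 0.0347). The third gene to rise in fusion clones, *Cnot3*, did so by 2.16 (SE 0.47, adjusted p = 0.0396), but male embryos also exceeded female embryos at this gene, by 2.40 (SE 0.91, adjusted p = 0.635). In fusion clones the calls of *Ythdf2*, *Tob2* and *Cnot3* were each lost without any 1 of 6 of the 7 arrays, the exceptions being female embryo 1, female embryo 2 and female embryo 2. *Cnot8*, named after its value was seen, rose by 0.72 over both clone groups (SE 0.12, adjusted p = 0.00203). *Btg4*, the adaptor that acts on maternal RNA in the zygote, was well above background on 3 arrays, all of clones.

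Markers of cumulus and granulosa cells and of sperm were measured because both cell types touch the oocyte. Of 16 cumulus and granulosa genes, 4 to 6 were well above background in fusion clones, 5 to 6 in injection clones, 6 to 9 in male and 6 to 7 in female embryos. *Has2*, which makes the cumulus matrix, was so on 1 array, and *Lhcgr* and *Adamts1* on none. The summed signal of this list, on the linear scale, was 1211 to 2873 in fusion clones, 1790 to 2716 in injection clones, 1157 to 2640 in male and 1183 to 1296 in female embryos. All injection clones were above all female embryos in this sum, as they were in *Gdf9*. Fusion clone 1 had the highest sum of all arrays (2873) with *Gdf9* at 9.17. Injection clone 4 had the lowest sum of its group (1790) with *Gdf9* at 10.53. Whether the sum and *Gdf9* went together over the arrays was not tested. The list did not move as one. *Amhr2*, the receptor of anti-Müllerian hormone, read 10.49 to 11.20 in injection clones and 7.97 to 9.58 in female embryos. In injection clones its mean log2 value was 10.80, with *Cyp19a1* next at 6.59, so that the linear sum there rests mostly on *Amhr2*. The median log2 difference over the 9 genes tested was -0.60 and 0 were called by limma (smallest adjusted p = 0.0648). Between all clones and all IVF embryos *Amhr2* rose by 1.63 (adjusted p = 0.00559), *Inha* and *Foxl2* fell by 2.48 and 0.77, and *Amh*, not well above background on any clone array, was at least 1.44-fold lower (28.6% of 14 tested genes called, against 22.3% of all probes). The part of any of these in *Gdf9* was not tested. Of 10 sperm and spermatid genes, 4 to 6 were well above background in clones, which receive no sperm, and 3 to 5 in IVF embryos, with sums of 530 to 1871 in clones and 387 to 1282 in IVF embryos, and *Akap4*, *Pgk2* and *Spem1* were not so on any array. *Tnp1* was the 1 gene of that list called, and fell by 0.95 in injection clones against female embryos (adjusted p = 0.0488) and by 0.67 in all clones against all IVF embryos (adjusted p = 0.00994).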

How the data were processed

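RNA of 14 mouse blastocyst samples was amplified in 2 rounds, labeled with Cy3 and hybridized to Agilent 4 x 44K whole mouse genome arrays, per the labels and the study's methods. The deposited scanner files hold spot intensity from Feature Extraction 10.5.1.1 (clones) or 9.5.3.1 (IVF), background-subtracted within each array by the authors' software and not normalized between arrays. The clone files hold no processed intensity below 0, and the IVF files hold 6790 to 9981 such spots. The authors' deposited value table holds log2 values centered per probe (r of 0.99 or more with the equally centered scanner values on each array, medians -0.224 to 0.16), and its exact scaling is not known. This table served as an alternative, and 0 of its columns were without a match.

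Control spots (1639) were dropped, and spots flagged as outliers (101 to 338 per array) were treated as missing. Processed intensities were quantile-normalized over all 14 arrays, floored at 16, log2-transformed, and replicate spots of 1 probe averaged (R 4.3.3, limma 3.58.1, Python 3.11.15, matplotlib 3.10.9). A RefSeq table (GRCm38.p6) named 32727 of 41174 gene probes (79.5%). A gene is given by its brightest probe. A probe that exceeded background clearly (the software's "well above background" mark) on 1 or more arrays of a comparison was tested with lmFit and eBayes, without a variance trend, and Benjamini-Hochberg adjustment over all probes tested, and was called at an adjusted p below 0.05. Where a group had no array well above background, the fold is a lower bound, set against the higher, per array, of the dim probe's value and the lowest value of any probe well above background. It bounds the fold between the group means and does not take in the spread between arrays. The number of arrays limits the precision. Alternatives were a 75th percentile shift, normexp with an offset of 50, floors of 1 and 32, 2 other probe filters, the deposited log2 values, other fits, a replicate block, a looser call rule (unadjusted p below 0.05 and 2-fold; the methods name a significance level and a 2-fold filter without saying whether p was adjusted) and each array left out. The clone files hold no mean spot signal, so that normexp used the median signal in place of the planned mean. The dimmer probes, and the alternatives for the genes of the other lists, were added after seeing the data. The limma test was tested on simulated data, in which unchanged probes made up more of the calls than the nominal share in most settings, so that calls close to the threshold are less certain than their adjusted p. Only bright probes were changed in the simulation, so that it does not show how changes of members at or near the floor are recovered.

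Same-numbered male and female IVF arrays deviated from their group means together (r = 0.109, 0.129 and 0.11), and the pairing was taken from these data, since no label ties the numbers. In the other comparisons r was -0.072 to 0.108. The members, the lists (members, other oocyte genes, decay factors, blastocyst, cumulus and granulosa, sperm and spermatid markers) and the tests were chosen with earlier results of these data known. Apart from the members, the genes named are up to 3 called genes in each direction per list, taken by size of the difference, in each clone group against female embryos, and genes of the same complex or named for reference.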

Additional observations from a re-analysis of the deposited data

Results flagged for a closer look

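In 4 of the 15 groups of 4 arrays whose values varied, 1 array lay far from the others by Dixon's test at the 95% level, where chance alone gives about 5% of groups. These were *Bmp15* in injection clone 4 (5.24 on the log2 scale), *Zar1* in injection clone 2 (5.07), *Nlrp5* in fusion clone 2 (7.44) and *Nlrp5* in injection clone 4 (4.55). In each, the other 3 arrays of the group were at the floor of 4, which fixes their spread at 0, so that any value off the floor is reached by the test. Injection clone 4 also had the most member genes well above background among the clones, 7 of 9, and the largest share of gene spots well above background, 65.2%. The part of this share in these values was not tested.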

How the results depend on the processing

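Against female embryos, the member probes called in fusion clones numbered 1 with normexp, 1 with the filter on every array of a group, 3 (of 2 genes) under the looser rule, and 0 to 2 with single arrays left out (2, both of *Zp3*, without fusion clone 2, and 1 without female embryo 3). Under the looser rule 2 were called in injection clones and 4 (of 3 genes) between the sexes. For both clone groups against both IVF groups the count was 2 with a floor of 1, 0 with a floor of 32 and 0 to 2 with single arrays left out (2 without male embryo 2). With the replicate block the member counts were 0, 0, 0, 0 and 1. In the first 4 comparisons it called 0 of all probes, against 3033 in fusion clones, 1184 in injection clones and 19 between the sexes without it, so that those member counts of 0 say nothing of stability. All 8 calls of other oocyte and decay genes against female embryos were lost with it, at adjusted p values of 0.0973 (*Lhx8*) to 0.226 (*Tle6*), and between clones and IVF embryos that of *Obox6* (0.0795). Under the block, against female embryos, the fusion clone differences of *Zar1* and *Npm2* turned to -0.017 and 0.11. Other turns of sign concerned differences that were not called. With a floor of 1, *Zar1* turned to -0.17 between the clone groups and 0.37 between clones and IVF embryos, and *Npm2* to -0.018 between the sexes. With the deposited log2 values, *Zp2* turned to 0.038 in fusion clones, and between clones and IVF embryos *H1foo* turned to 0.032 and *Zar1* to 1.23. Normexp turned the latter *Zar1* value to 0.012 and the 75th percentile shift the *H1foo* value to 0.0038. The dimmer *Zp2* probe gave -0.82 in injection clones. With single arrays left out, the ranges that crossed 0 were, against female embryos, -0.11 to 1.13 (*Gdf9*), -1.55 to 0.43 (*Npm2*) and -0.017 to 0.37 (*Zar1*) in fusion clones and -0.0044 to 0.37 (*H1foo*) and -0.15 to 0.27 (*Zar1*) in injection clones. Between the clone groups they were -0.14 to 1.01 (*Nlrp5*), -0.041 to 1.16 (*Npm2*), -0.13 to 0.37 (*Zar1*) and -1.03 to 0.087 (dimmer *Zp3* probe). Between the sexes they were -0.94 to 1.49 (*Npm2*) and -0.0203 to 1.06 (dimmer *Zp2* probe), and between clones and IVF embryos -0.00049 to 0.62 (*Gdf9*), -0.36 to 0.50 (*Nlrp5*) and -0.21 to 0.24 (*Zar1*). The cause was not tested. Signal over background limited *Bmp15*, *Zar1*, *Nlrp5*, *Mos* and the brighter *Zp2* probe, which were measured on at most 6 of 14 arrays.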
